A study of Mus musculus with 3 samples.

Results

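The cells described here are 191 cells of the MF-MI library that together carried at least 3 UMIs (unique molecular identifiers, one per captured RNA molecule) of Cd209a, Klrd1, Flt3 and H2-Oa. They were 191 of the 4673 MF-MI cells that had 500 or more detected genes and a mitochondrial share of UMIs no higher than 10%, and of 8207 such cells over the 3 libraries of the series. The 4 gate genes are used together as markers of type 2 conventional dendritic cells (cDC2). Klrd1 is shared with NK cells, and the gate can admit other lineages, which are counted below. The cells were chosen by their measured counts, so the levels of these 4 genes are a description of the choice and not a result. They are called gate cells below. The 4016 MF-MI cells with 0 UMIs of the 4 genes are called gate-negative cells and are the set they are compared with.

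MF-MI holds cardiac macrophages taken on day 11 after myocardial infarction from Cx3cr1CreER-YFP/+:R26Td/+ mice, in which the Cx3cr1 promoter drives both a tamoxifen-dependent Cre and YFP and a Cre-dependent tdTomato sits at Rosa26. MF_SS holds macrophages of uninjured hearts of the same genotype, and MF-DC holds macrophages together with dendritic cells of uninjured wild-type hearts. All mice were C57BL/6 and 8 to 12 weeks old, and all hearts were digested with flavopiridol, a transcription inhibitor, in the buffer. Macrophages had been sorted as live CD45+ CD11b+ cells with low to high CD64, and dendritic cells as CD64- cells that were CD11c+ and had MHC class II from intermediate upwards. Each group is 1 library of droplet-based single-cell 3′ RNA counts, and the number of animals pooled in it is not given in the sources used here. No difference could therefore be set against a spread between animals, no p-value is given, and every interval below is a 95% interval that covers counting error only. Injury, genotype and sort differ together between MF-MI and MF-DC and cannot be told apart in any comparison of these libraries.

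Conventional dendritic cells take up antigen, display its peptides on MHC class II and carry it to T cells. The cDC2 lineage depends on the growth factor receptor Flt3, is typically CD11b+ and CD64 negative to low, and in the heart lies among a much larger number of macrophages. Its mouse markers include the C-type lectins Cd209a, Clec10a and Mgl2, while the related cDC1 lineage carries Xcr1 and Clec9a. MHC class II genes share promoter elements, among them the Y box, whose core reads ATTGG on the coding strand (the reverse complement of CCAAT) and is bound by NF-Y, and their transcription depends on the transactivator Ciita.

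H2-Oa, a gate gene, encodes the alpha chain of the nonclassical molecule H2-O, and with its partner gene H2-Ob and the peptide-loading gene H2-DMb2 it belongs to the MHC region on chromosome 17. The 150 bases before the RefSeq start of these genes and of the classical gene H2-Aa are shown 5′ to 3′ on each gene's strand, because 3 of the 4 are results below and all 4 hold the Y box core, in capitals.
H2-Oa (GRCm38.p6, chr17:34092229-34092378, plus strand): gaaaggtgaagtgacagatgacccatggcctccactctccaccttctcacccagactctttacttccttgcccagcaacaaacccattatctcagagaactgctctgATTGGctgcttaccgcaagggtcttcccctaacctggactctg
H2-Ob (GRCm38.p6, chr17:34238755-34238904, plus strand): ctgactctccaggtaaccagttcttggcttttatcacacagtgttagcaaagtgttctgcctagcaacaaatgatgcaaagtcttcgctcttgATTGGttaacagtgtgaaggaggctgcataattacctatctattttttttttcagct
H2-DMb2 (GRCm38.p6, chr17:34145099-34145248, plus strand): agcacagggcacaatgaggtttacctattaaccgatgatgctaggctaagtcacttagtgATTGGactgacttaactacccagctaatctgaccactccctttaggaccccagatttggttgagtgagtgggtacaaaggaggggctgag
H2-Aa (GRCm38.p6, chr17:34287824-34287973, minus strand): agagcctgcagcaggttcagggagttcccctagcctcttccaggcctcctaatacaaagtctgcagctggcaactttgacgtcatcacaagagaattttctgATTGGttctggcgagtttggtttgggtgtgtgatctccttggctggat
The motif began 43, 57, 90 and 48 bases before the start of H2-Oa, H2-Ob, H2-DMb2 and H2-Aa. Of 9 H2 genes looked up, 8 were in the RefSeq table, H2-Ab1 was not, and 7 of the 8 held ATTGG on their own strand in these 150 bases. Over all 32851 starts of the table the share was 13.71% on the gene's strand and 24.5% with either strand counted. A match is a description of these letters and not a site.

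The MF-MI library held 45177529 UMIs and the MF-DC library 14388327, and per cell the median was 11871 UMIs in day 11 gate cells against 8028.5 in gate-negative cells. Between 7 and 11 cell barcodes were shared by any pair of libraries, and no barcode was a gate cell in both of a pair.

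The gate was met by 191 of 4673 MF-MI cells, 4.09% (exact binomial interval 3.54 to 4.70%). In MF-DC it was met by 703 of 1767 cells, 39.8% (37.5 to 42.1%), and in MF_SS by 35 of 1767 cells, 1.98% (1.38 to 2.74%). With every cell thinned to 3000 UMIs the shares were 2.22%, 25.8% and 0.736%, in the same order. MF-DC included a dendritic cell sort that can set its share, so the shares do not compare hearts.

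Cd209a (chr8:3743397-3748984, mm10) supplied most of the signal. It was detected in 154 of the 191 gate cells (80.6%), with 2193 UMIs that made up 68.4% of all gate-gene UMIs. H2-Oa (chr17:34092340-34095234) was detected in 124 cells with 465 UMIs, Klrd1 (chr6:129591782-129598775), the CD94 receptor chain shared with NK cells, in 110 cells with 383 UMIs, and Flt3 (chr5:147330741-147400489) in 99 cells with 167 UMIs. All 4 genes were found together in 41 cells, 3 in 61, 2 in 51 and 1 in 38. The sum of gate UMIs per cell ran from 3 through quartiles of 4, 12 and 24.5 to 68, so the members range from cells at the threshold to cells with many gate transcripts.

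Genes outside the rule did not share one course across the threshold. Levels are given as CPM, UMIs scaled to a total of 1000000 and pooled over a set of cells. Napsa, an aspartic protease of antigen-presenting cells, stood at 178 CPM in the 33 cells with 3 gate UMIs and 222 CPM in the 78 cells with 2, against 729 CPM in the 62 cells with 20 or more and 60.4 CPM in gate-negative cells. Clec10a stood at 108 and 57.6 CPM in the cells with 3 and 2 gate UMIs, and at 533 CPM in those with 20 or more. C1qa, a complement gene of macrophages, was at 4729 and 4992 CPM just inside and just outside, and at 2619 CPM in the cells with 20 or more. For these 3 genes the cells with 3 UMIs lay nearer to those with 2 than to the highest members. Apoe went the other way, at 17511 CPM in the cells with 3, 23857 CPM in those with 2 and 16694 CPM in those with 20 or more. H2-Ab1 lay about midway, at 15267, 12874 and 18056 CPM in the same sets. Ccr2 was highest near the threshold, at 520 CPM in the cells with 3 gate UMIs, against 342 CPM in those with 20 or more and 228 CPM in gate-negative cells.

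**Figure D1:**
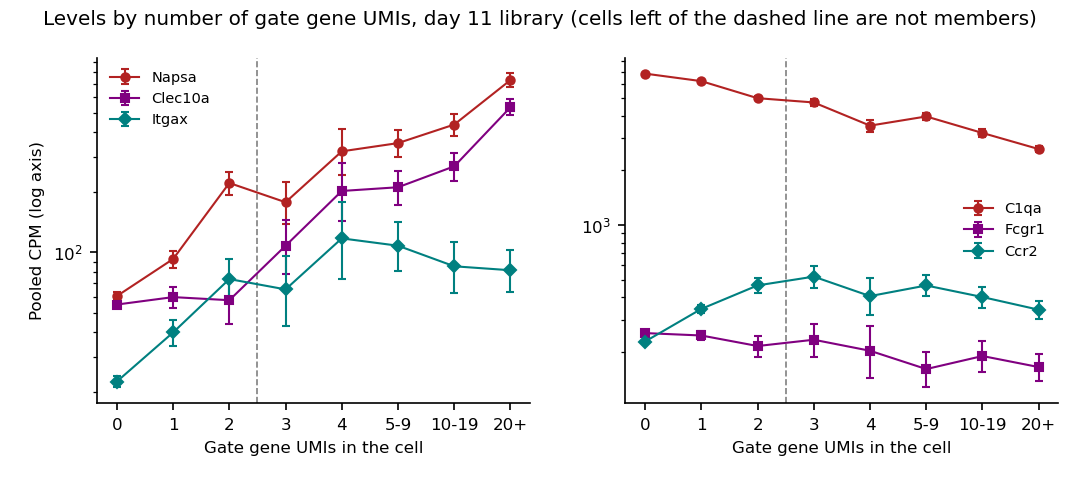
Pooled CPM (log axes, error bars exact 95% Poisson intervals) of Napsa, Clec10a and Itgax on the left and C1qa, Fcgr1 and Ccr2 on the right, by the number of gate-gene UMIs in a cell of the day 11 library. Cells right of the dashed line are members; Napsa reached 729 CPM and C1qa 2619 CPM at 20 or more gate UMIs, against 60.4 and 6817 CPM at 0.

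By markers outside the rule, the gate cells carried dendritic cell genes, and a large share of them carried macrophage genes as well. The marker lists, like the rule, were chosen with earlier results of these data known. Their levels are thus a description and not an independent check of the cDC2 label. The share of a cell's UMIs from C1qa, C1qb and C1qc had a median of 0.811% in gate cells (0 to 2.63%) against 2.05% in gate-negative cells. Cells under 0.3% are called C1q-low and cells at 1% or more C1q-high, thresholds chosen after the values were seen. Of the gate cells 67 (35.1%) were C1q-low and 84 (44.0%) C1q-high, with 40 between, while 3581 of 4016 gate-negative cells (89.2%) were C1q-high. Among the 703 MF-DC gate cells 670 were C1q-low and 12 were C1q-high. The cDC2 label therefore describes part of the day 11 gate cells, and for 84 of the 191 it goes against their C1q level.

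The C1q-high gate cells were the deeper ones, with a median of 15838.5 UMIs against 8919 UMIs in C1q-low gate cells and 7951 UMIs in C1q-high gate-negative cells. By Scrublet scores 3.74% of all 4673 MF-MI cells were marked as likely doublets, and 3.49% of C1q-high gate-negative cells. Among gate cells the mark fell on 12 of the 84 C1q-high cells (14.3%) and 0 of the 67 C1q-low ones. Droplets that hold a macrophage and another cell were not separated by this count, and their part in the C1q-high cells was not tested.

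**Figure D2:**
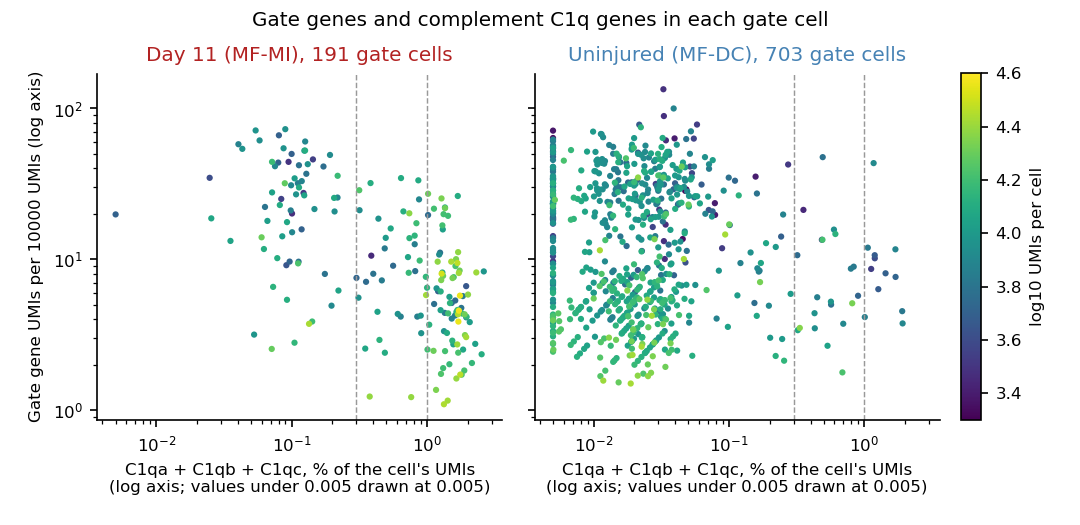
Each point is a gate cell, with the share of its UMIs from the 3 C1q genes on the x axis (%, log), gate-gene UMIs per 10000 UMIs on the y axis (log) and its depth as colour, for 191 day 11 cells (left) and 703 MF-DC cells (right). Dashed lines mark 0.3% and 1%; the day 11 cells spread over both sides, with 67 below and 84 above, and the MF-DC cells lie below with 670.

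Other lineages that the gate could admit were counted by their defining genes. Xcr1, the cDC1 chemokine receptor, had no UMI in 191 day 11 gate cells, whose exact interval for cells with a UMI reaches 1.91%, and was found in 239 of 703 MF-DC gate cells (34.0%). Clec9a stood at 3.98 CPM in day 11 gate cells and 71.3 CPM in MF-DC gate cells. At least 2 UMIs of lineage-defining NK, T or B cell genes were carried by 24 day 11 gate cells, 18 of them by B cell genes, against 3 MF-DC gate cells. Nkg7, a granule gene of NK cells, was at 30.7 CPM in gate cells and 0.73 CPM in gate-negative cells, with 94.8% of its gate-cell UMIs in 3 cells. With Cadm1 and Itgae counted beside Xcr1 and Clec9a, 34 of the 191 day 11 gate cells (17.8%) held at least 2 UMIs of cDC1 genes, but Cadm1 was as high in gate-negative cells, at 45.0 CPM in gate cells and 44.6 CPM in gate-negative cells. Of the 8 cDC1 markers with at least 20 CPM in either set, 3 were at least 2-fold higher in gate cells than in gate-negative cells and 0 lower, beside 2.47% of all genes higher. The full NK, T and B cell marker lists reached 2 UMIs in 71 gate cells (37.2%), and the 24 cells with lineage-defining genes made up 12.6%. The upper quartile of a cell's UMI share from B cell markers was 0.0063% in gate cells and 0.0100% in gate-negative cells. For NK cell markers it was 0.0085% and 0%, and for T cell markers 0% in both. How many gate-negative cells reached 2 UMIs is not given here, so the 71 and 24 cells are not read as an excess.

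For these reasons the gate cells were also read as a filtered subset, chosen after the values were seen. It held the C1q-low cells with fewer than 2 UMIs of Xcr1, Clec9a, Cadm1 and Itgae in sum and fewer than 2 UMIs of lineage-defining lymphoid genes. This left 57 cells of MF-MI with 535845 UMIs and 404 cells of MF-DC, called filtered C1q-low cells. In them the gate genes were at 1937 CPM for Cd209a, 414 CPM for H2-Oa, 278 CPM for Klrd1 and 110 CPM for Flt3 on day 11, against 2052, 205, 438 and 63.8 CPM in MF-DC.

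Against the gate-negative cells of the same library, the 191 gate cells had higher levels of antigen presentation and dendritic cell adhesion genes and lower levels of genes of infarct macrophages. Of 2645 genes that reached 50 CPM in either set, 64 stood 2-fold or more above the gate-negative level (2.42% of those compared) and 61 stood 2-fold or more below it (2.31%), with the gate genes left out; such genes are called higher and lower from here on. The cDC2 markers outside the rule were higher at 11 of 13 measured members and lower at none, with a median log2 ratio of 2.54, beside -0.04 over all 5182 genes at 20 CPM. At that minimum 2.47% of all genes were higher and 2.03% lower by this measure. Core dendritic cell genes were higher at 6 of 9 measured members, with a median of 2.18. Both lists were chosen with earlier results of these data known, so these counts describe the cells and do not test their identity.

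Napsa (chr7:44572380-44586862) was among the most widely shared of these genes. It stood at 472 CPM in gate cells and 60.4 CPM in gate-negative cells, 7.81-fold higher (7.27 to 8.38), with a UMI in 172 of 191 gate cells. At 3000 UMIs per cell it was detected in 65.1% of gate cells, 13.5% of gate-negative cells and 16.5% of gate-negative MF-DC cells. Itgb7, an integrin beta chain, stood at 154 CPM in gate cells and 14.5 CPM in gate-negative cells, 10.7-fold higher (9.32 to 12.2), in 139 cells. Both genes were thus found in most gate cells and in a minority of the others.

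Clec10a (chr11:70156197-70170834), the galactose-binding lectin CD301a, was at 319 CPM in gate cells and 54.8 CPM in gate-negative cells, 5.82-fold higher (5.36 to 6.32). Its paralog Mgl2 was at 542 and 197 CPM, 2.75-fold higher (2.60 to 2.92); reads of these near-identical genes may be split between them in the authors' counting. Dpp4, the surface peptidase CD26, was at 54.5 and 2.91 CPM, 18.7-fold higher (14.5 to 24.3). At 3000 UMIs Mgl2 was detected in 52.4% of gate cells and 26.7% of gate-negative cells and Dpp4 in 14.8% and 0.81%. Mgl2 was thus common on both sides of the gate and Dpp4 was not.

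Amica1, a junctional adhesion molecule of leukocytes, was at 57.7 CPM in gate cells and 1.53 CPM in gate-negative cells, with a UMI in 77 gate cells. Ltb4r1, the receptor of leukotriene B4, was at 89.6 and 11.2 CPM. Kmo, an enzyme of tryptophan breakdown, was at 40.2 and 8.86 CPM, and Itgax, the CD11c integrin chain used to sort dendritic cells in MF-DC only, was at 87.6 and 22.6 CPM. Hepacam2, Mcemp1, Sirpb1a and Cbfa2t3, a transcriptional corepressor, were 4.21 to 13.1-fold higher. None of these genes had more than 16.6% of its gate-cell UMIs in 3 cells.

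Some of the highest ratios rested on few cells. Ccl17, a chemokine that attracts CCR4-bearing T cells, was at 113 CPM in gate cells and 1.21 CPM in gate-negative cells, a 93.3-fold ratio, but 93.7% of its 284 UMIs came from 3 cells and 9 cells had any. Without those 3 cells' UMIs it was at 7.16 CPM. Il1r2, a decoy receptor for interleukin 1, was at 54.9 and 2.15 CPM with 47.8% of its UMIs in 3 cells, and Ifitm1, an interferon-inducible membrane gene, was at 206 and 15.3 CPM with 40.2% in 3 cells. Ratios for these genes describe a few cells and not the set.

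Most measured MHC class II genes were higher in gate cells, by folds that differed among them. H2-Ab1 (chr17:34257689-34269419) was at 16186 CPM in gate cells and 7501 CPM in gate-negative cells, 2.16-fold higher (2.14 to 2.18). Its per-cell level ran from 0 to 448.8 UMIs per 10000 in gate-negative cells, with quartiles of 8.91, 48.1 and 138, and from 3.06 to 366 in gate cells, with quartiles of 122, 185 and 233, so the ranges overlap. The measured class II genes numbered 9, of which 7 were higher and 0 lower, beside 2.47% of all genes higher. Their median log2 ratio was 1.11. H2-DMa and Cd74 did not reach 2-fold, at 1.93-fold and 1.94-fold. Ciita was at 67.7 CPM in gate cells and 25.7 CPM in gate-negative cells, 2.63-fold higher (2.22 to 3.10).

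H2-DMb2 and H2-Ob, genes of peptide-loading control whose promoters are printed above, stood further apart than the classical chains. This did not hold for H2-DMb1 and H2-DMa, whose ratios lay near those of the classical chains. H2-DMb2, a beta chain of the peptide-loading molecule H2-M, was at 195 CPM in gate cells and 8.72 CPM in gate-negative cells, 22.3-fold higher (19.3 to 25.7), with a UMI in 105 cells. H2-Ob was at 64.1 and 7.62 CPM, 8.41-fold higher (6.88 to 10.2), in 93 cells. H2-DMb1, the neighbouring beta chain gene, was at 1086 and 503 CPM, and H2-Aa was at 13950 and 6942 CPM. H2-DMb1 and H2-DMb2 are near-identical copies, so reads could be split between them in the counting. For the 9 measured MHC class I genes the median log2 ratio was 0.03, and 0 were called in either direction.

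Of 4 measured killer lectin-like receptor genes other than Klrd1, 3 were higher and 0 lower, beside 2.47% of all genes higher. Klra17 was at 48.6 CPM in gate cells and 3.07 CPM in gate-negative cells, while Klra2, at 41.0 and 34.4 CPM, was not called. Klrb1b was at 45.0 CPM in gate cells and 2.37 CPM in gate-negative cells, with a UMI in 71 gate cells. Klrk1, the activating receptor NKG2D, was at 29.8 and 2.10 CPM. Since Klrd1 is a gate gene and 4 of 4 measured NK cell markers were also higher in the whole gate, the part of NK cells in these levels was not tested there. In the filtered C1q-low cells Klrb1b was at 93.3 CPM and Klrk1 at 29.9 CPM. Nkg7 had no UMI there, but it is among the lineage-defining genes of the filter. Its absence thus follows in part from the choice of cells, and the part of NK cells was not tested there either.

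By their medians, the lists of dendritic cell transcription factors and costimulation genes differed little, while single factors stood well apart. Dendritic cell transcription factors had a median log2 ratio of -0.01, and 1 of 14 measured was higher, Bcl11a, at 25.5 CPM in gate cells and 1.88 CPM in gate-negative cells. Zbtb46, a factor of conventional dendritic cells, was below the 20 CPM minimum, at 5.17 and 0.70 CPM, 7.39-fold higher (3.49 to 14.9). Irf4, which cDC2 cells need, was at 7.56 and 4.23 CPM. Costimulation genes had a median of 0.12, and Ccr7, the receptor of migrating dendritic cells, was at 0.80 and 0.43 CPM, with 2 UMIs among all gate cells. Mature dendritic cell markers had a median of 0.14 and 1 of 6 measured members was higher. Over all genes at 20 CPM 2.47% were higher.

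**Figure D3:**
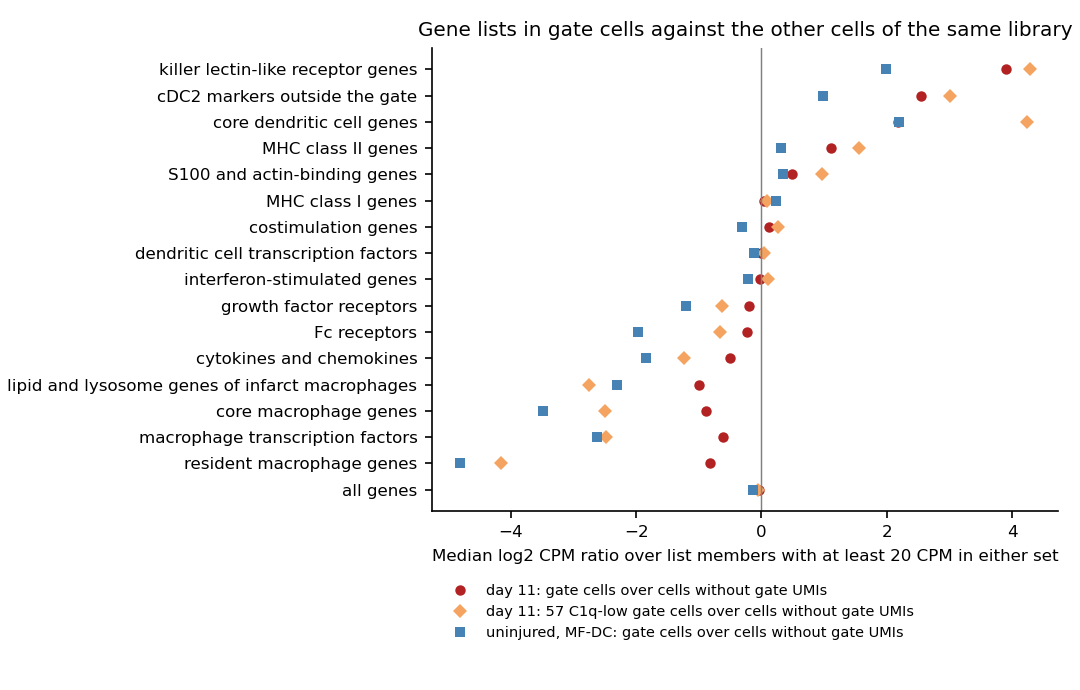
Median log2 CPM ratio of each gene list over its members with at least 20 CPM, for the 191 day 11 gate cells over gate-negative cells (circles), the 57 filtered C1q-low cells over the same gate-negative cells (diamonds) and the MF-DC gate cells over MF-DC gate-negative cells (squares). The cDC2 markers lie at 2.54, 3.02 and 0.98 and the core macrophage genes at -0.88, -2.49 and -3.49.

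Genes of infarct macrophages were lower in gate cells. Spp1 (osteopontin), a secreted matrix protein of macrophages in injured tissue, was at 193 CPM in gate cells and 1031 CPM in gate-negative cells, 5.35-fold lower (4.89 to 5.87). Fcrls, an Fc receptor-like gene of tissue macrophages, was at 281 and 769 CPM, 2.74-fold lower, and Ctsd, a lysosomal protease, was at 860 and 2293 CPM, 2.67-fold lower. Apoe, a lipid carrier, was at 18796 and 42699 CPM, 2.27-fold lower. Spp1 and Ctsd belong to the list of genes of lipid handling and lysosomes in infarct macrophages, and Fcrls and Apoe do not. In this list 7 of 14 measured members were lower and 0 higher, at a median of -0.997, beside 2.03% of all genes lower.

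Ccl12, a monocyte chemoattractant, Pla2g7, Ms4a7, C5ar1, Igf1, Cd63 and Trem2, a lipid receptor, were among the other 2-fold lower genes, with Trem2 at 392 CPM in gate cells and 920 CPM in gate-negative cells. Arg1 was at 19.9 and 92.0 CPM, with 76.0% of its gate-cell UMIs in 3 cells. Core macrophage genes had a median log2 ratio of -0.88 with 5 of 19 lower and 0 higher, beside 2.03% of all genes lower. Csf1r, the growth factor receptor of macrophages, was at 581 CPM in gate cells and 905 CPM in gate-negative cells, within 2-fold. Ccr2, the receptor of recruited monocytes, was at 412 CPM in gate cells, 228 CPM in gate-negative cells and 309 CPM in MF-DC gate cells. The core macrophage genes moved with the C1q share of the gate cells. Whether fewer cells or less RNA per cell lowered them cannot be read from the pooled levels.

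In the filtered C1q-low cells the same comparison was wider. Against gate-negative cells, 184 of 2807 genes (6.56%) were higher and 329 (11.7%) lower. Napsa was at 965 CPM, 15.97-fold higher (14.5 to 17.6) than in gate-negative cells, and Itgb7 at 287 CPM, 19.9-fold higher (16.5 to 23.8). All 9 measured class II genes were higher, at a median of 1.55, as were 12 of 15 core dendritic cell genes, at a median of 4.23; over all genes at 20 CPM 6.37% were higher. All 19 measured core macrophage genes were lower, beside 13% of all genes, but the choice of C1q-low cells fixed part of that direction.

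The C1q-high gate cells still differed from C1q-high gate-negative cells in dendritic cell genes. Of 2601 genes 24 were higher (0.923%) and 10 lower (0.384%), and at 20 CPM these shares were 1.33% and 0.599%. Napsa was at 262 CPM in the 84 C1q-high gate cells and 44.4 CPM in the 3581 C1q-high gate-negative cells, 5.90-fold higher (5.25 to 6.62). H2-DMb2 was at 138 and 8.21 CPM, 16.8-fold higher (13.9 to 20.3), and Itgb7 at 82.0 and 11.1 CPM. The cDC2 markers outside the rule were higher at 9 of 11 measured members, at a median of 1.90, while for the 19 core macrophage genes the median was -0.42 and 0 were called. Macrophage and dendritic cell genes were therefore counted in the same barcodes, which were also the deepest.

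**Figure D4:**
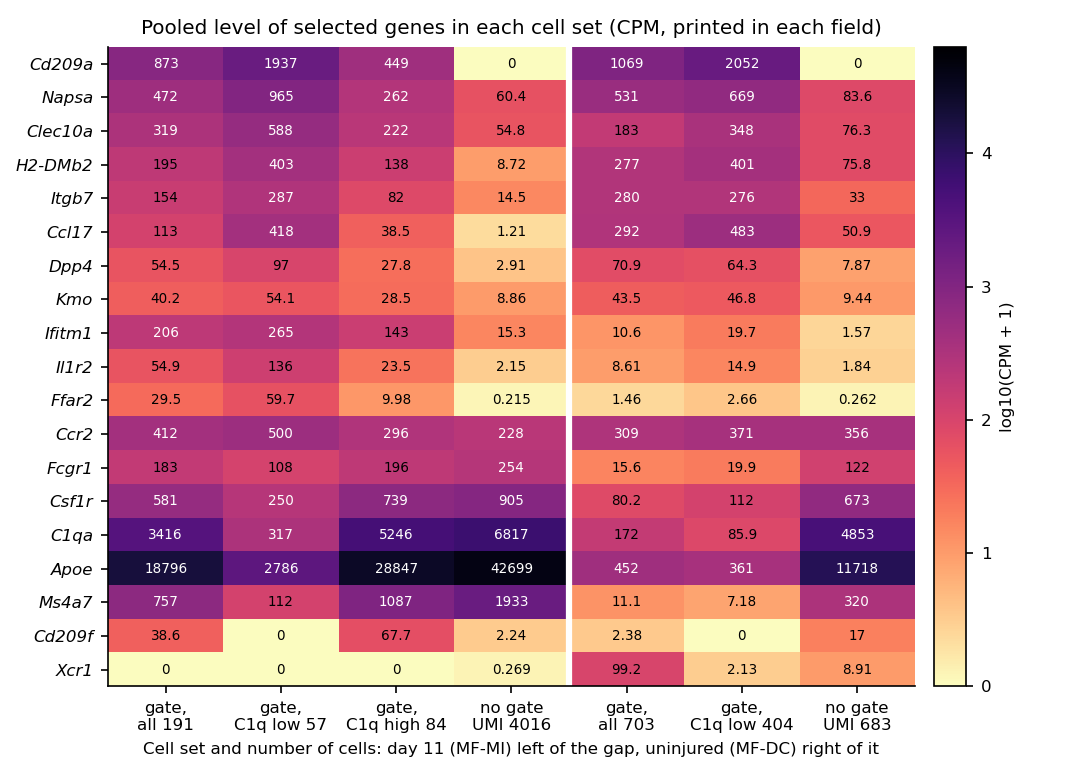
Pooled CPM of 19 genes (printed in each field; colour is log10 of CPM plus 1) in 4 day 11 cell sets left of the gap and 3 MF-DC sets right of it, with the number of cells under each column. Napsa is at 472, 965, 262 and 60.4 CPM from left to right in the day 11 sets, and Xcr1 is at 0 in all day 11 gate sets.

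The gate cells of MF-DC, from uninjured hearts, shared part of this contrast. Against the 683 gate-negative MF-DC cells, 103 of 2379 genes (4.33%) were higher in the 703 gate cells and 324 (13.6%) lower. At 20 CPM the shares were 4.48% and 13%, and 14 of 17 core dendritic cell genes were higher, at a median log2 ratio of 2.20. Of the 64 genes higher in day 11 gate cells, 29 were also higher in MF-DC gate cells, which is 45.3% of the day 11 list and 28.2% of the MF-DC list. Of the 61 lower genes 42 were also lower, 68.9% and 12.96% of the 2 lists, and none was called in the opposite direction. The 2 contrasts use separate libraries and no shared cells.

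Set directly against MF-DC gate cells, the day 11 gate cells were higher in macrophage genes and lower in cDC1 genes. Of 2561 genes 379 were higher in the day 11 cells (14.8%) and 105 lower (4.1%); with median-ratio scaling in place of totals these were 217 and 178, since the median log2 ratio of all genes was 0.32 with totals. All 18 measured core macrophage genes were higher, beside 17.2% of all genes at 20 CPM, with Apoe at 18796 CPM in day 11 gate cells and 452 CPM in MF-DC gate cells, C1qc at 2762 and 125 CPM and Ms4a7 at 757 and 11.1 CPM. Of 13 measured cDC1 markers 12 were lower, beside 3.66% of all genes, with Naaa at 190 and 970 CPM and Irf8 at 162 and 564 CPM. Xcr1 was at least 83.1-fold lower, from a count of 0 taken as 3 counts over the 191 cells.

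Saa3 and Ccl8 ranked among the genes most above MF-DC, at 103 and 414 CPM in day 11 gate cells and 0.13 and 2.12 CPM in MF-DC gate cells, but 80.4% and 74.0% of their day 11 UMIs came from 3 cells. Retnla was lower, at 53.7 CPM against 906 CPM, with 83.7% of the day 11 UMIs in 3 cells. Gpnmb, Trem2, Itgb5, Cebpb, Maf, Hebp1, Gas6, C5ar1, Igf1 and Cd63 were the other named genes above MF-DC, and Gcsam, Cd24a, Tlr3, Cxx1a, Cxx1b, Fcrla, Tnni2, Xlr, Hmgn3, Ryr1 and Ifi205 the other named genes below. Since 84 of the 191 day 11 cells were C1q-high and 239 of the 703 MF-DC cells held Xcr1, this contrast sets different mixtures side by side.

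The filtered C1q-low cells of the 2 libraries gave a narrower contrast, added after the values were seen. Of 2488 genes 185 were higher in the 57 day 11 cells than in the 404 MF-DC cells (7.44%) and 63 lower (2.53%), with a median of 0.26 over all genes at 20 CPM. Class II genes had a median of 0.08, core dendritic cell genes 0.22 and cDC2 markers outside the rule 0.16. Of 13 measured cDC2 markers 4 were higher on day 11 (Sirpa, Ifitm1, Ltb and Il1r2) and 3 lower (Tnip3, Cd7 and Cd209d), so the median lay between members that differed in both directions, beside 10.6% of all genes higher and 2.6% lower. Core dendritic cell genes had 1 of 17 higher and 1 lower, and class II genes 1 of 9 higher and 0 lower. Core macrophage genes were higher at 10 of 16 measured members and lower at 0, with a median of 1.22. Itgb7 was at 287 CPM on day 11 and 276 CPM in MF-DC, and Napsa at 965 and 669 CPM. Clec10a was at 588 CPM on day 11 and 348 CPM in MF-DC, and Mgl2 at 862 and 1261 CPM. These 4 genes lay within 2-fold between the sets, which was not so for the 7 cDC2 markers named above.

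Fcgr1 (chr3:96282909-96293969) encodes CD64, the surface protein on which the sorts differed, since the day 11 sort required it at a low level or more and the dendritic cell sort of MF-DC excluded it. It was at 108 CPM in the day 11 filtered C1q-low cells and 19.9 CPM in those of MF-DC, 5.43-fold higher (3.78 to 7.75). The day 11 gate-negative cells had 254 CPM, and the MF-DC gate-negative cells 122 CPM. At 3000 UMIs it was detected in 22.8% of the filtered day 11 cells, 3.6% of the filtered MF-DC cells and 48.0% of day 11 gate-negative cells. The filtered day 11 cells thus stood between filtered MF-DC cells and day 11 gate-negative cells for the gene of their own sort marker. Their level lay near that of MF-DC gate-negative cells, and the part of the sorts in it was not tested.

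Apoe was counted in every day 11 cell on both sides of the gate, while C1qa had no UMI in some cells of each. Apoe had a UMI in all 57 filtered cells, at 16.05 to 80.1 per 10000 UMIs with quartiles of 21.98, 25.2 and 32.3, and its lowest value in any gate-negative cell was 11.3. Pooled over the filtered cells, Apoe stood at 6.53% of its level in gate-negative cells, C1qa at 4.65%, Ms4a7 at 5.79% and Trem2 at 6.69%. Fcgr1 stood at 42.6% (32.3 to 55.1%), Csf1r at 27.6%, Cd68, a lysosomal membrane gene, at 47.5%, Fcer1g, a signalling chain of Fc receptors, at 71.9% and Itgam, the CD11b chain, at 81.8%. The shares were thus not uniform over the genes compared, and the part of free RNA in each level was not tested.

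Several genes higher in the filtered day 11 cells were as high in day 11 gate-negative cells. Cd72, a B cell and myeloid lectin, was at 564 CPM in filtered day 11 cells and 60.9 CPM in filtered MF-DC cells, 9.26-fold higher (7.77 to 11.0), beside 531 CPM in day 11 gate-negative cells, and it had a UMI in 54 of 57 cells. Fcgr4, an activating Fc receptor, was at 138 and 15.4 CPM beside 167 CPM, and Mmp14, a membrane metalloprotease, at 56.0 and 3.46 CPM beside 68.6 CPM. Apoe, Ms4a7, Trem2, Cebpb, Tgfbr1, Abi3, Basp1 and Sirpb1c were the other named genes above MF-DC in this contrast, from 6.23-fold for Sirpb1c to 15.6-fold for Ms4a7. Interferon-stimulated genes were higher at 7 of 9 measured members and lower at 1, Cxcl10, with a median of 1.19. Over all genes at 20 CPM in this contrast 10.6% were higher and 2.6% lower, with a median of 0.26. Irf7, a factor of the interferon response, was at 116 CPM on day 11 and 31.1 CPM in MF-DC, and at 77.9 CPM in day 11 and 27.5 CPM in MF-DC gate-negative cells. For Irf7 a difference between the libraries was thus seen in cells on both sides of the gate.

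Ffar2 and Fxyd7 were higher in the filtered day 11 cells than in both the filtered MF-DC cells and the day 11 gate-negative cells. Ffar2, a receptor for short-chain fatty acids, was at 59.7 CPM in filtered day 11 cells, 2.66 CPM in filtered MF-DC cells and 0.22 CPM in day 11 gate-negative cells, from 32 UMIs in 14 of 57 cells. Fxyd7, a regulator of the sodium pump, was at 89.6, 4.79 and 1.99 CPM, from 48 UMIs in 17 cells. Il1b, the inflammatory cytokine, was at 390 CPM in filtered day 11 cells and 84.6 CPM in filtered MF-DC cells, 4.61-fold higher (3.86 to 5.51), but the 144 C1q-low gate-negative cells of day 11 had 570 CPM. Ifitm1 was at 265 and 19.7 CPM with 78.2% of its UMIs in 3 cells, and Il1r2 at 136 and 14.9 CPM with 63.0% in 3 cells. Ffar2 and Fxyd7 were thus detected in a minority of the filtered cells. Of the neutrophil markers, S100a8 had no UMI in the filtered day 11 cells and S100a9 was at 3.73 CPM, against 10.3 and 4.44 CPM in day 11 gate-negative cells.

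Retnla, a secreted resistin-like protein, was the gene furthest below. It was at 7.46 CPM in the 57 filtered day 11 cells, from 4 UMIs, and 873 CPM in the filtered MF-DC cells, with a UMI in 340 of those 404. In MF-DC gate-negative cells it was at 6106 CPM, so this gene too was high on both sides of the gate in that library. Crip1 was at 2964 CPM on day 11 and 6923 CPM in MF-DC, and Pfn1, an actin-binding protein, at 625 and 1809 CPM. Ccl5, a chemokine, was at 13.1 and 307 CPM, with 56.1% of its MF-DC UMIs in 3 cells. Lyz1, Mt2, Lpl, Pdlim1, Tnni2, Fdps, Tppp3, Fcrls, Upb1, Ear2 and Cd209d were the other named genes below, from 3.25-fold lower for Ear2 to 14.6-fold lower for Lyz1 (4.96 to 71.3), which had 3 UMIs in the day 11 cells.

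**Figure D5:**
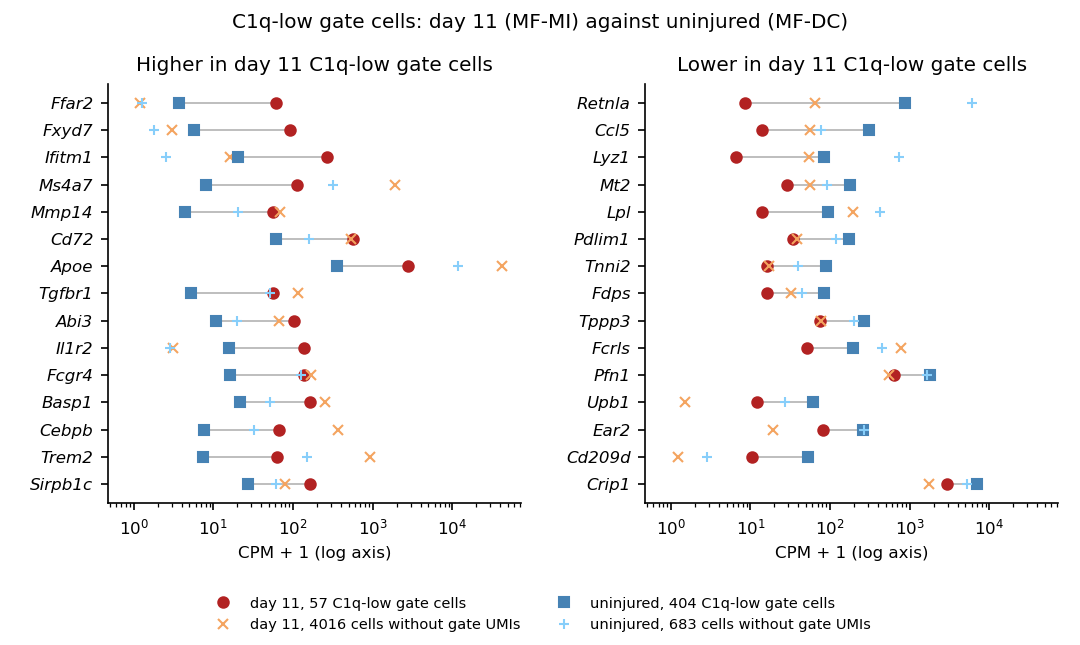
The 15 named genes furthest above (left) and furthest below (right) in the 57 filtered C1q-low day 11 cells, as CPM plus 1 on log axes, joined to the value in the 404 filtered MF-DC cells, with both gate-negative sets as crosses. Cd72 lies at 564 CPM in filtered and 531 CPM in gate-negative day 11 cells, while Ffar2 lies at 59.7 and 0.22 CPM.

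The 35 gate cells of MF_SS, from uninjured hearts of the day 11 genotype, were mostly C1q-high (22 cells, with 8 C1q-low). Core macrophage genes had a median log2 ratio of -0.05 between day 11 and MF_SS gate cells, and 0 of 18 measured members were called. Of 2689 genes 43 were higher in the 191 day 11 gate cells than in MF_SS gate cells (1.6%) and 64 lower (2.38%); at 20 CPM these shares were 2.51% and 3.21%. Resident macrophage genes had a median log2 ratio of -1.70, and 10 of 12 measured members were lower on day 11 and 0 higher. For genes of lipid handling and lysosomes the median was 1.59, with 9 of 14 higher and 0 lower. Class II genes had a median of 0.25 and 0 of 9 were called. Ifitm1 was at 206 CPM in day 11 gate cells and 5.19 CPM in MF_SS gate cells, and Retnla at 53.7 and 736 CPM.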

How the data were processed

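The authors deposited raw UMI counts for each gene in each called cell barcode, obtained with Cell Ranger and STAR on mm10, per the submitters' processing notes; the sources used here give no tool versions. No column of another series was present (0). Barcodes were kept from 500 detected genes and up to a mitochondrial share of 10% of UMIs, which left out 24 of MF-MI, 13 of MF-DC and 39 of MF_SS. Counts were summed over the cells of a set and divided by the non-reporter total to give CPM, with numpy 2.4.6, scipy 1.17.1 and pandas 2.3.3 under Python 3.11.15. Ratios have exact conditional 95% intervals, levels exact Poisson and shares exact Clopper-Pearson intervals; all treat UMIs or cells as independent. A count of 0 was set to 3 counts over the set to bound a ratio. A gene was called from 2-fold with at least 50 CPM in either set, and list medians used genes with at least 20 CPM in either set. For shares at equal depth, cells were thinned to 3000 UMIs, which left out 84 MF-MI, 172 MF-DC and 0 MF_SS cells. Doublets were scored with Scrublet in scanpy 1.11.5 and kept; the highest scores, 0.8% per 1000 barcodes, were marked, since the automatic threshold marked 2, 4 and 6 barcodes. Named genes were the first 15 in each direction by the interval bound nearest to 1, leaving out the gate genes, reporters, unnamed and sex-linked genes and those of mitochondria, ribosomal proteins, immunoglobulins and haemoglobins, besides members of the gene lists. The 4 gate genes, the lists and the rule were chosen with earlier results of these data known. The C1q classes, the filtered subset and the count of UMIs per cell of each gene were added after the values were seen. Alternatives were other thresholds, gate genes left out, thinning, other scalings and minima, and MF_SS in place of MF-DC. The procedure was tested on simulated data. Gene positions are from GENCODE vM21 on mm10; promoter sequences are RefSeq, GRCm38.p6. Figures were drawn with matplotlib 3.10.9.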

Additional observations from a re-analysis of the deposited data

How the results depend on the processing

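No paired analysis was possible because each group has 1 library, and leaving out a replicate was likewise not possible. The share of cells meeting the gate (4.09%) was 5.76% from 2 UMIs, 3.38% from 4 UMIs, 2.87% without Cd209a, 3.49% without H2-Oa, 2.22% with thinned cells, 3.22% without cells holding at least 2 UMIs of NK, T or B cell markers and, among settings added after the data were seen, 2.16% from 10 UMIs and 1.22% for filtered C1q-low cells. The 64 genes higher in gate cells than in gate-negative cells were 153 with thinned cells, 128 and 37 with a minimum of 20 and 100 CPM, 25 from 3-fold, 184 in filtered C1q-low cells (added) and 40 without the UMIs of each gene's 3 highest cells (added). The 61 lower genes were 36 with a threshold of 2 UMIs, 93 without Cd209a, 255 thinned, 111 without cells with these lymphoid marker UMIs, 116 with mean per-cell CPM, 105 and 40 with a minimum of 20 and 100 CPM, 5 from 3-fold, 329 in filtered C1q-low cells and 109 without the 3 highest cells. Against MF-DC gate cells, the 379 higher genes were 217 with median-ratio scaling, 867 and 184 with a minimum of 20 and 100 CPM, 193 from 3-fold, 43 with MF_SS gate cells in place of MF-DC and 185 in filtered C1q-low cells. The 105 lower genes were 178, 184 (20 CPM), 45 (3-fold), 64 (MF_SS) and 63 (filtered C1q-low) under the same settings. Taking MF_SS reversed 9 named genes, with log2 ratios of -0.86 for Maf, -0.44 for C1qc, -1.14 for Gas6, -0.32 for C5ar1, -0.48 for Igf1, 1.102 for Tlr3, 1.62 for Clec9a, 1.102 for Fcrla and 3.14 for Ifi205; no other planned setting reversed a value. The cause of these changes was not tested. With 57 filtered cells, genes near 50 CPM rest on few UMIs there.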

Other observations

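The reporter transcripts were low on both sides of the day 11 gate. EYFP had a UMI in 49 of 191 gate cells (25.7%, 19.6 to 32.5%) and 990 of 4016 gate-negative cells (24.7%, 23.3 to 26.01%), and TdTomato in 4 and 55 cells (2.09% and 1.37%). Cx3cr1 itself was at 172 CPM in gate cells and 230 CPM in gate-negative cells. The reporters were not compared with MF-DC, which came from wild-type mice. Cd209f, a lectin gene beside Cd209a, was at 67.7 CPM in the 84 C1q-high gate cells and 2.295 CPM in C1q-high gate-negative cells, but all 95 of its UMIs came from 2 cells, 86 of them from 1.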
